A study of Saccharomyces cerevisiae with 12 samples.

Results

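GCR1 and 7 transcription factors that work with it on glycolytic or ribosomal protein genes were followed across 3 budding yeast deletion strains. The members were GCR1, GCR2, RAP1, TYE7, REB1, FHL1, IFH1 and SFP1, a set chosen by name for what these proteins do. Earlier results of these data were known when the set was chosen. The members were found as the array probes annotated to those symbols, which gave 8 genes of 5636 in all and 14 probes of 9271 named ones. GCR1, GCR2, RAP1, FHL1, IFH1 and SFP1 had 2 probes each, and TYE7 and REB1 had 1. The samples were strains labelled gcr1 null, nup84 null and nup84gcr1 null, the last a double deletion, each hybridised beside wild-type RNA on 4 arrays, with every culture in 2% glucose. On arrays 1 and 2 the deletion strain was in Cy5, on arrays 3 and 4 in Cy3. The series describes biological replicates with technical dye swaps, so n = 2 biological samples per strain, and the labels do not tell which array is the swap of which. Strain background, mating type, growth phase and the extent of each deletion are not given in the sources used here. Every value is a log2 ratio of deletion strain over wild type, so a ratio of 1 is a doubling, and it cannot separate more RNA in the deletion strain from less in the wild type.

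Gcr1 binds the CTTCC box in the promoters of glycolytic genes and activates them together with its coactivator Gcr2, next to sites of the general regulatory factor Rap1. The same Rap1 also sits on most ribosomal protein promoters, where the forkhead protein Fhl1 and its coactivator Ifh1 assemble, and at telomeres. Tye7, also called Sgc1 for suppressor of gcr, is a basic helix-loop-helix (bHLH) activator of glycolytic genes. Reb1 is a general regulatory factor that keeps promoters free of nucleosomes and binds in ribosomal DNA, and Sfp1 is a zinc finger activator of ribosome biogenesis and ribosomal protein genes that responds to nutrients through the TOR and protein kinase A pathways. Nup84 belongs to the scaffold of the nuclear pore complex.

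Of the 8 factors, 3 passed the test in the strain labelled gcr1 null and the same 3 in the strain labelled nup84gcr1 null, namely TYE7 and GCR1 upward and RAP1 downward. None of the 8 passed in the nup84 null, where RAP1 was the 1 factor at an unadjusted p under 0.05. A gene was called where its limma p, adjusted by Benjamini-Hochberg over all 5636 genes, was under 0.05. By that rule 34.8% of all genes were called in the strain labelled gcr1 null, with 17.2% higher and 17.7% lower. In the nup84 null 16.7% were called, 8.61% higher and 8.09% lower, and in the strain labelled nup84gcr1 null 39.5%, with 20.5% higher and 18.9% lower. A count of 3 of 8 is therefore near the share called among all genes in both strains labelled as lacking GCR1. The median over the 8 factors was 0.028, -0.077 and -0.14 for the labels gcr1 null, nup84 null and nup84gcr1 null, beside 0.031, -0.005 and 0.025 over all genes tested.

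**Figure D1:**
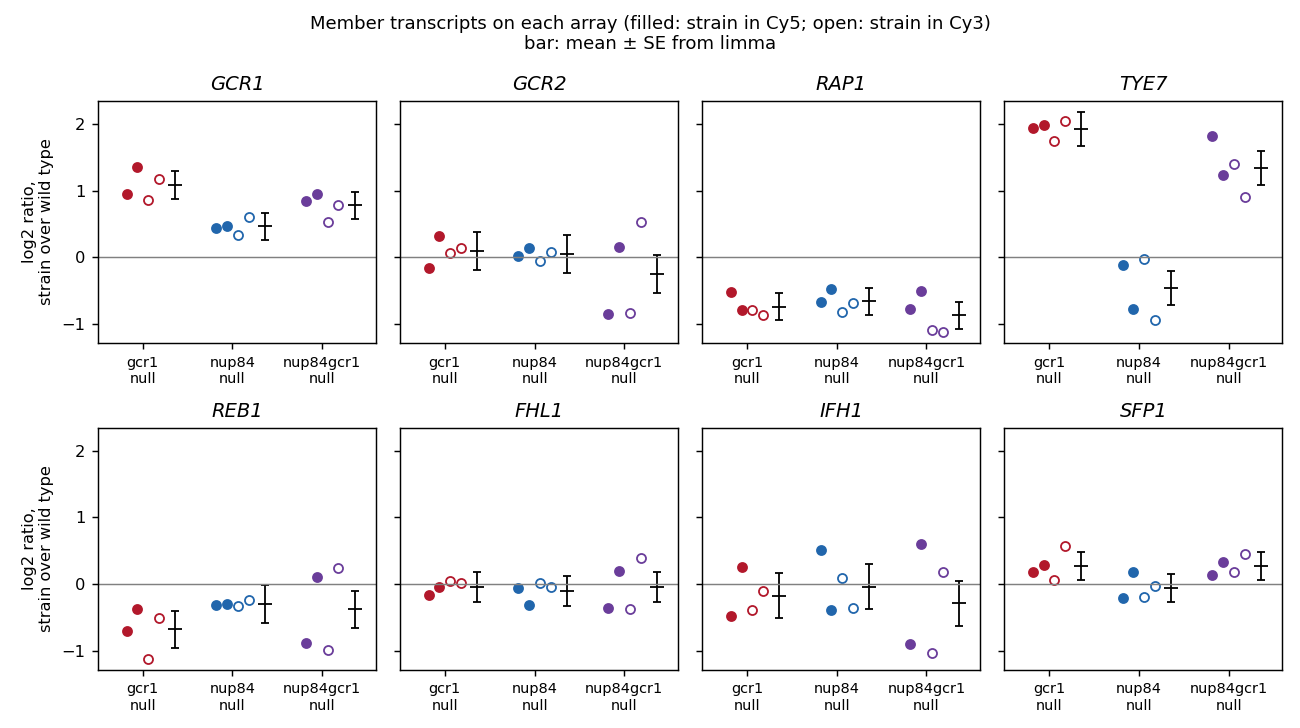
Each panel plots 1 factor, with the log2 ratio of deletion strain over wild type on the y axis and the 3 strains by their labels on the x axis. Filled points are arrays with the strain in Cy5, open points arrays with the strain in Cy3, and the black bar is the mean with its SE from limma. TYE7 lies between 0.90 and 2.04 on all 8 arrays of the strains labelled gcr1 null and nup84gcr1 null and below 0 on the 4 arrays of the nup84 null, while GCR1 lies above 0 and RAP1 below 0 on all 12 arrays.

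GCR1 (YPL075W) itself was not low in the strains labelled as lacking it, which goes against the labels if its probes lie in the deleted part. The 4 arrays of the strain labelled gcr1 null read 0.94, 1.36, 0.85 and 1.17. In the nup84 null they read 0.45, 0.47, 0.34 and 0.60, and in the strain labelled nup84gcr1 null 0.85, 0.96, 0.53 and 0.79. Each array was above 0, and the strain labelled gcr1 null was highest, without overlap with the nup84 null, while the arrays of the strain labelled nup84gcr1 null overlapped both. GCR1 rose to 1.08 ± 0.21 (SE, n = 2) in the strain labelled gcr1 null, 2.12-fold above wild type, and to 0.78 ± 0.21 in the strain labelled nup84gcr1 null (adjusted p = 0.00453 and 0.0174). In the nup84 null its ratio of 0.47 did not pass (95% interval -0.006 to 0.94; adjusted p = 0.158). There GCR1 did pass in 4 of 22 alternative settings, among them scaled arrays (0.57; limma, adjusted p = 0.0406). The others took arrays 1 with 4 and 2 with 3 as the only swaps, or the 4 arrays as replicates with or without a dye term. The SE is the larger of 2 fits, one for each way of pairing the arrays as dye swaps, and pools the spread of all 3 strains.

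Both GCR1 probes gave this result. Their means were 1.08 and 1.08 in the strain labelled gcr1 null, 0.41 and 0.52 in the nup84 null, and 0.76 and 0.80 in the strain labelled nup84gcr1 null. The largest gap between them on a single array was 0.28. Dye orientation moved the value little in the strain labelled gcr1 null, with a mean of 1.15 on the arrays with the strain in Cy5 and 1.01 on those with it in Cy3. The sources used here do not give where in the gene the probes lie, and one that reads outside the deletion would not check it. NUP84 (YDL116W), read the same way, was at -3.19 ± 0.24 in the nup84 null and -2.74 ± 0.24 in the strain labelled nup84gcr1 null (adjusted p = 0.000549 and 0.000128), while in the strain labelled gcr1 null it was at -0.49 and not called (adjusted p = 0.155). The NUP84 call in the nup84 null was lost on leaving out its arrays 1 and 4 (-3.00; adjusted p = 0.0521). ENO2, an enolase gene that Gcr1 is known to activate, was at -5.53 and -5.17 in the strains labelled gcr1 null and nup84gcr1 null, and at -1.59 in the nup84 null. The deletion of GCR1 itself rests on the labels, and these strains are named by them. The GCR1 call in the strain labelled gcr1 null was lost on leaving out arrays 2 and 4, arrays 1 and 4, or arrays 2 and 3 of that strain (0.90, 1.11 and 1.06; adjusted p = 0.138, 0.072 and 0.0796). In the strain labelled nup84gcr1 null it did not pass without its arrays 2 and 4 (0.69; adjusted p = 0.0512) or when that strain was fitted alone (adjusted p = 0.157).

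TYE7 (YOR344C), the bHLH activator, had the largest ratio of the 8 factors in both strains labelled as lacking GCR1. Its single probe read 1.94, 1.98, 1.74 and 2.04 on the arrays of the strain labelled gcr1 null. On those of the nup84 null it read -0.11, -0.76, -0.029 and -0.94, and on those of the strain labelled nup84gcr1 null 1.82, 1.23, 1.40 and 0.90. The 2 strains labelled as lacking GCR1 did not overlap with the nup84 null. TYE7 rose to 1.93 ± 0.25 (SE, n = 2; adjusted p = 0.000808), or 3.80-fold, in the strain labelled gcr1 null, at rank 147 from the highest of 5636 genes. It rose to 1.34 ± 0.25, or 2.53-fold, in the strain labelled nup84gcr1 null (adjusted p = 0.00375), rank 445. Both calls held in all 22 alternative settings tried. In the nup84 null the ratio was -0.46 (95% interval -1.04 to 0.12, limma adjusted p = 0.244). The array pairs were unequal, with -0.070 on arrays 1 and 3 and -0.85 on arrays 2 and 4. In all, 5.71% of genes had as large a gap between those pairs in that strain.

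RAP1 (YNL216W), the general regulatory factor, was below 0 on all 12 arrays. The arrays read -0.52, -0.78, -0.78 and -0.86 in the strain labelled gcr1 null. They read -0.66, -0.47, -0.82 and -0.68 in the nup84 null and -0.78, -0.50, -1.09 and -1.11 in the strain labelled nup84gcr1 null. The ranges of all 3 strains overlapped. RAP1 fell to -0.74 ± 0.20 (SE, n = 2) in the strain labelled gcr1 null and -0.87 ± 0.20 in the strain labelled nup84gcr1 null (adjusted p = 0.0207 and 0.00895), or 1.67-fold and 1.83-fold lower than wild type. The nup84 null had a ratio of -0.66 with a 95% interval of -1.11 to -0.20, just outside the threshold (adjusted p = 0.0546).

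The RAP1 ratio was lower on arrays with the strain in Cy3 than on those with it in Cy5 in each strain, at -0.82 against -0.65, -0.75 against -0.56, and -1.10 against -0.64 for the labels gcr1 null, nup84 null and nup84gcr1 null. It was below 0 in both orientations of all 3 strains. Calls on RAP1 lay close to the threshold. In the strain labelled gcr1 null the call was lost whichever pair of that strain's arrays was left out (-0.65 to -0.82; adjusted p = 0.137 to 0.279) and whichever pair of the nup84 null's was (adjusted p = 0.0517). In the strain labelled nup84gcr1 null it did not pass when that strain was fitted alone (adjusted p = 0.105). In the nup84 null RAP1 did pass in 11 of 22 settings. Among them was leaving out each array pair in turn from the strain labelled nup84gcr1 null. Those fits gave an identical result, since they changed only the pooled spread, and are not separate support. RAP1 also passed in the nup84 null with values left uncentred (limma, adjusted p = 0.048) or scaled (adjusted p = 0.0108). It passed too with the nup84 null fitted alone (adjusted p = 0.00708), and with a replicate block on the sample number (adjusted p = 0.0431).

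GCR2 (YNL199C), the coactivator of Gcr1, did not pass in any strain. Its arrays read -0.16, 0.32, 0.068 and 0.14 in the strain labelled gcr1 null and 0.015, 0.14, -0.046 and 0.080 in the nup84 null. Those of the strain labelled nup84gcr1 null read -0.85, 0.15, -0.83 and 0.53, with arrays 1 and 3 below 0 and arrays 2 and 4 above it. The mean ratios were 0.091, 0.047 and -0.25 ± 0.28 (SE, n = 2), and the 95% intervals ran from -0.55 to 0.74, from -0.60 to 0.69 and from -0.90 to 0.39.

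REB1 (YBR049C), the other general regulatory factor of the set, was below 0 on all 4 arrays of the strain labelled gcr1 null (-0.70, -0.38, -1.11 and -0.51) and of the nup84 null (-0.32, -0.29, -0.32 and -0.24). In the strain labelled nup84gcr1 null it read -0.88, 0.12, -0.99 and 0.25, on both sides of 0. The mean of -0.67 ± 0.28 (SE, n = 2) in the strain labelled gcr1 null did not pass (adjusted p = 0.0973). It passed in 8 of 22 settings, among them fitting the strain alone (limma, adjusted p = 0.0185). Leaving out each array pair in turn from the strain labelled nup84gcr1 null also let it pass. Those fits gave an identical result, since they changed only the pooled spread, and are not separate support.

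The ribosomal protein gene activators FHL1 (YPR104C), IFH1 (YLR223C) and SFP1 (YLR403W) did not pass in any strain. FHL1 averaged -0.035, -0.097 and -0.035 ± 0.23 (SE, n = 2) for the labels gcr1 null, nup84 null and nup84gcr1 null. Its 2 probes lay on opposite sides of 0 in the last strain, at 0.088 and -0.16. IFH1, the coactivator that joins Fhl1, averaged -0.17, -0.035 and -0.28 ± 0.33 and ranged over the arrays from -0.47 to 0.26, from -0.39 to 0.51 and from -1.03 to 0.61. SFP1 averaged 0.28, -0.058 and 0.28 ± 0.21, and its arrays were all above 0 in the strains labelled gcr1 null (0.062 to 0.57) and nup84gcr1 null (0.14 to 0.46), against 1 of 4 in the nup84 null. The 95% intervals of SFP1 were -0.20 to 0.75, -0.53 to 0.42 and -0.20 to 0.76.

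The 2 biological samples agreed less for some members than for others, and the strain labelled nup84gcr1 null was the least even. If arrays 1 and 3 are sample 1 and arrays 2 and 4 sample 2, IFH1 stood at -0.96 and 0.40 there, GCR2 at -0.84 and 0.34, REB1 at -0.93 and 0.18, and FHL1 at -0.36 and 0.29. All 4 were lower in sample 1. As large a gap was found in 8.61%, 12.7%, 15.3% and 40.2% of all genes in the same strain. Over all genes the gap had an SD of 0.81 in this strain, against 0.50 in the strain labelled gcr1 null and 0.42 in the nup84 null. GCR1, RAP1, SFP1 and TYE7 kept their sign in both samples of this strain, at 0.69 and 0.87, -0.93 and -0.80, 0.16 and 0.40, and 1.61 and 1.06. Without arrays 2 and 4 of the strain, GCR2, IFH1 and REB1 read -0.84, -0.96 and -0.93. Without arrays 1 and 3 they read 0.34, 0.40 and 0.18. With 1 pair left the strain has no spread of its own between pairs, so these values are not read as calls.

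**Figure D2:**
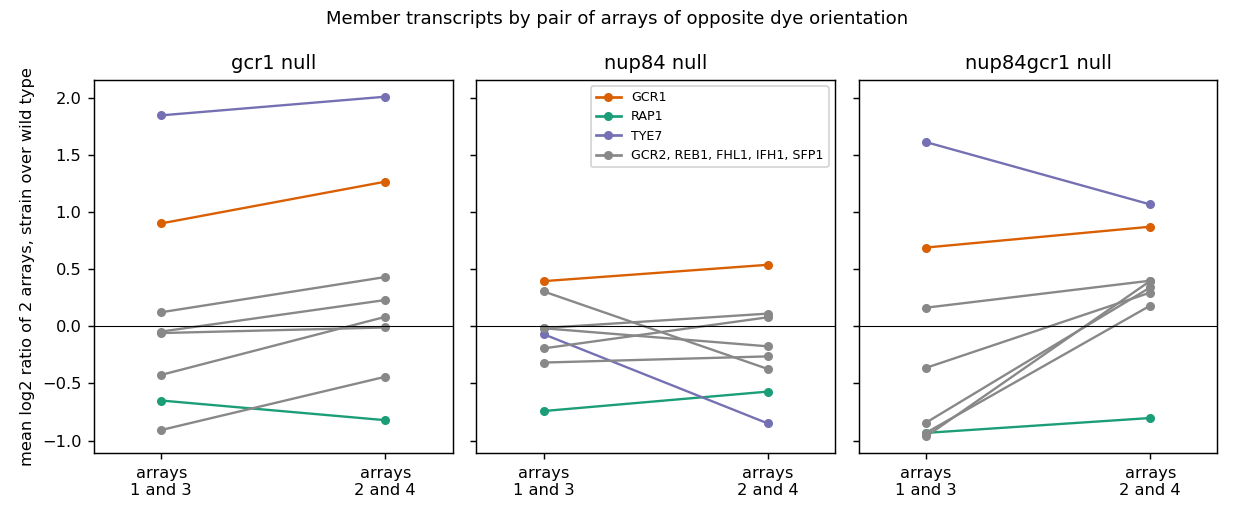
Each line joins the mean log2 ratio of arrays 1 and 3 to that of arrays 2 and 4 for 1 factor, with 1 panel per strain by its label and the strain over wild type ratio on the y axis. In the strain labelled nup84gcr1 null the grey lines of GCR2, REB1, FHL1 and IFH1 cross 0, while those of GCR1, TYE7 and RAP1 do not.

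Differences between the strains were tested directly, and TYE7 was the 1 member that passed. Its ratio of 1.93 in the strain labelled gcr1 null, against -0.46 in the nup84 null, differed by 2.39 ± 0.36 (SE; adjusted p = 0.03), a contrast in which 0.515% of all genes were called. The 4 arrays of either strain were apart from those of the other. Whichever array pair of either strain was left out, the difference was 2.00 to 2.78 and did not pass (adjusted p = 0.179 to 0.377). TYE7 differed by 1.80 ± 0.36 between the strain labelled nup84gcr1 null and the nup84 null, 1.34 against -0.46 (95% interval 0.98 to 2.61), which did not pass (adjusted p = 0.0677). It passed with the replicate block (limma, adjusted p = 0.0496). Leaving out arrays 2 and 4, arrays 1 and 4, or arrays 2 and 3 from the strain labelled nup84gcr1 null gave 2.07, 1.77 and 1.82. With 1 pair left that strain has no spread of its own between pairs, so these values are not read as calls. In that contrast 0.745% of all genes were called and none of the 8 members, with TYE7 the 1 member at an unadjusted p under 0.05.

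Between the strain labelled nup84gcr1 null and the strain labelled gcr1 null, 0.0% of all genes were called by limma. At an unadjusted p under 0.05 there were 298, none of them a member. NUP84, by the labels deleted only in the first of these strains, differed by -2.25 (95% interval -3.03 to -1.47). It was not called either (limma, adjusted p = 0.106), so a lack of calls here does not show that the strains are alike. The TYE7 difference was -0.59 (95% interval -1.41 to 0.23) and that of GCR1 -0.30 (-0.97 to 0.36). GCR1 differed by 0.62 between the strain labelled gcr1 null and the nup84 null (95% interval -0.049 to 1.28; adjusted p = 0.448). It differed by 0.31 between the strain labelled nup84gcr1 null and the nup84 null (-0.35 to 0.98). For GCR1 the order from high to low was the strains labelled gcr1 null, nup84gcr1 null and nup84 null, with no neighbours that differed by the test. RAP1 differed by -0.079 between the strain labelled gcr1 null and the nup84 null (95% interval -0.72 to 0.56). It differed by -0.21 between the strain labelled nup84gcr1 null and the nup84 null (-0.85 to 0.43), and by -0.13 between the strains labelled nup84gcr1 null and gcr1 null (-0.77 to 0.51). All 3 RAP1 differences were above 0 when the arrays were scaled to 1 spread, at 0.12, 0.13 and 0.008. The sources used here do not say whether arrays of different strains share wild-type RNA.

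**Figure D3:**
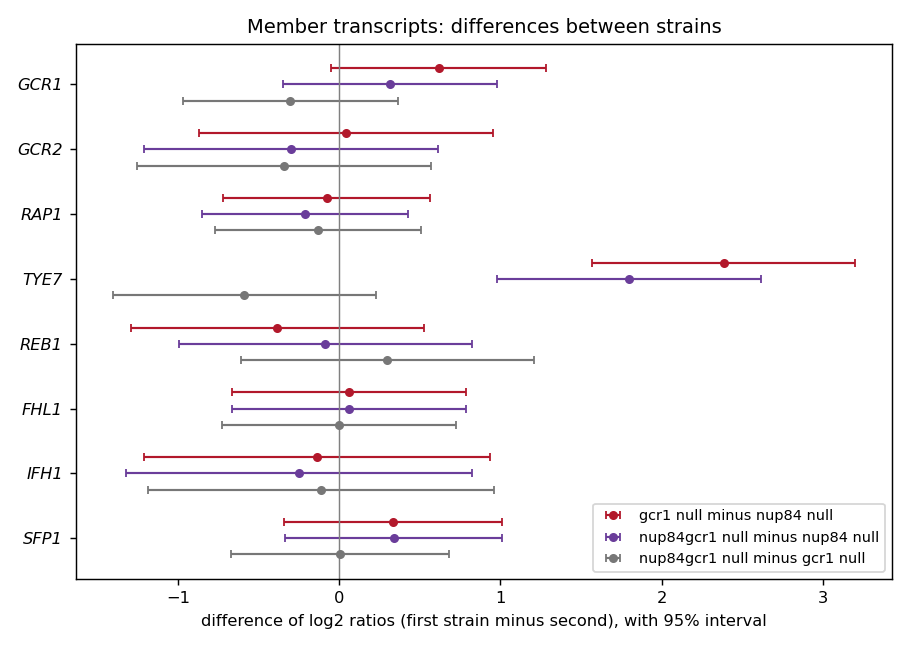
Points are differences of log2 ratios between strains, first strain minus second, with 95% intervals from limma on the x axis and 1 row per factor. TYE7 alone has intervals clear of 0, at 1.57 to 3.20 for the strain labelled gcr1 null minus the nup84 null and 0.98 to 2.61 for the strain labelled nup84gcr1 null minus the nup84 null.

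Glycolytic, ribosomal protein and ribosome biogenesis genes were counted as lists of targets of Gcr1, Rap1, Fhl1, Ifh1 and Sfp1. These lists and those below were also chosen with earlier results of these data known. Among all genes 17.7%, 8.09% and 18.9% fell for the labels gcr1 null, nup84 null and nup84gcr1 null. Of 15 glycolytic and fermentation enzyme genes 14 fell in each strain labelled as lacking GCR1, and 4 fell in the nup84 null, with medians of -2.43, -0.80 and -2.98 for the labels gcr1 null, nup84 null and nup84gcr1 null. The enolase gene ENO2 was lowest at -5.53 ± 0.23 (SE, n = 2), -1.59 and -5.17. The exceptions, named after their values were seen, were TDH1, a glyceraldehyde-3-phosphate dehydrogenase gene, at -0.19 in the strain labelled gcr1 null, and PGI1, the glucose-6-phosphate isomerase gene, at -0.47 in the strain labelled nup84gcr1 null. Of 135 ribosomal protein genes 134, 123 and 133 fell, with medians of -2.27, -1.11 and -2.10. Among the regulators of this list, RAP1 read -0.74, -0.66 and -0.87, called in the strains labelled gcr1 null and nup84gcr1 null. FHL1, IFH1 and SFP1 were not called in any strain. Their intervals were wide, such as -1.04 to 0.48 (95%) for IFH1 in the strain labelled nup84gcr1 null. RPL9A, a large subunit protein gene, was lowest in the strain labelled gcr1 null, at -3.30, -1.53 and -3.39. Many ribosomal protein genes have a near-identical copy, so a probe may read both copies. Of 24 ribosome biogenesis genes, among them Sfp1 targets, 17, 9 and 22 fell. BRX1, an assembly factor of the large subunit, read -2.18, -1.28 and -2.11. RNA here comes from whole cultures, so fewer cells that express a gene and less of its RNA per cell cannot be told apart.

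**Figure D4:**
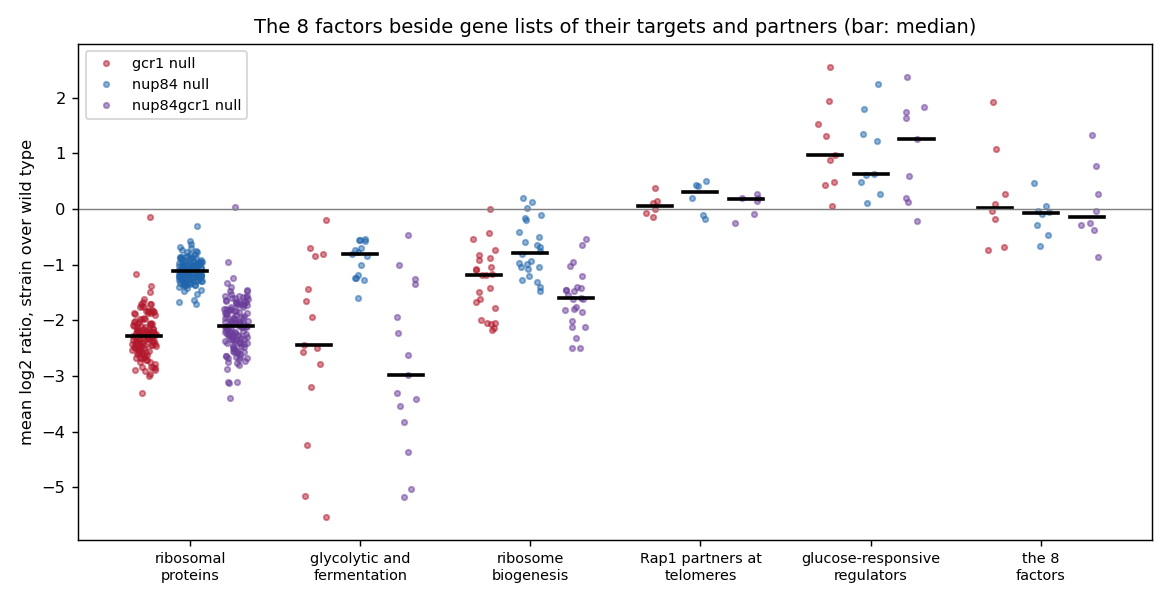
Points are genes, with the mean log2 ratio of strain over wild type on the y axis, gene lists and the 8 factors along the x axis, strains by colour and label, and black bars at medians. Ribosomal protein genes centre on -2.27, -1.11 and -2.10 for the labels gcr1 null, nup84 null and nup84gcr1 null, and the 8 factors centre near 0.

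Other regulators of the same promoters were read beside the members. Among 9 measured regulators of ribosomal protein genes, 1 rose and 3 fell in the strain labelled gcr1 null, where 34.8% of all genes were called. Counts of 4 of 9 here, 3 of 6 CURI genes and 2 of 4 general regulatory factors are of few genes, lie not far from that share and are not read as results about these lists. CRF1, the corepressor that competes with Ifh1 for Fhl1, rose to 0.95 ± 0.22 (SE, n = 2) there and to 1.28 in the strain labelled nup84gcr1 null (adjusted p = 0.0105 and 0.00223). Its ratio in the nup84 null was 0.072. HMO1, a high mobility group protein of ribosomal protein promoters and ribosomal DNA, fell in all 3 strains, to -1.18, -0.93 and -1.20 ± 0.24 (adjusted p = 0.00575, 0.0322 and 0.00481), and was the 1 gene of its list to pass in the nup84 null. The other 2 that fell in the strain labelled gcr1 null were the general regulatory factors ABF1 at -0.79 and TBF1 at -0.67 (adjusted p = 0.0402 and 0.0373). In the strain labelled nup84gcr1 null, 2 rose and 1 fell, the second riser being TOD6, a repressor of ribosome biogenesis genes, at 0.73 (adjusted p = 0.0263).

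Of 6 genes of the CURI complex, which ties Ifh1 to ribosome assembly through Utp22, Rrp7 and casein kinase 2, 3 fell in the strain labelled gcr1 null, 1 in the nup84 null, RRP7 at -0.82, and 4 in the strain labelled nup84gcr1 null. UTP22 read -1.24, -0.46 and -1.67 ± 0.28 (SE, n = 2; adjusted p = 0.00961, 0.295 and 0.00206). None of 6 Rap1 partners at telomeres and silencers (RIF1, RIF2 and SIR1 to SIR4) was called by limma in any strain, nor had an unadjusted p under 0.05, with medians of 0.064, 0.31 and 0.17. Of 7 other bHLH factors, 1 rose in the strain labelled gcr1 null, INO2, an activator of phospholipid synthesis genes, at 0.93 ± 0.24 (adjusted p = 0.016). None was called in the nup84 null, with 1 at an unadjusted p under 0.05, and 3 rose in the strain labelled nup84gcr1 null, namely CBF1, RTG1 and RTG3 at 0.75, 0.95 and 0.87. Of 4 other general regulatory factors, 2 fell in the strain labelled gcr1 null, ABF1 and TBF1 as above. None was called in the nup84 null, with 2 at an unadjusted p under 0.05, and CBF1 rose in the strain labelled nup84gcr1 null. Among all genes 17.2%, 8.61% and 20.5% rose for the labels gcr1 null, nup84 null and nup84gcr1 null. The shares that fell were 17.7%, 8.09% and 18.9%. All these counts are of few genes and are not read as results about the lists.

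Of 13 measured TOR and protein kinase A genes, which signal to Sfp1 and Ifh1, 11, 12 and 10 were not called for the labels gcr1 null, nup84 null and nup84gcr1 null, beside 3672, 4695 and 3412 of all 5636 genes. There were 1 that rose and 1 that fell in the strain labelled gcr1 null. The riser YAK1, a kinase that opposes growth signals, read 0.94, 0.84 and 1.46 ± 0.22 (SE, n = 2) for the labels gcr1 null, nup84 null and nup84gcr1 null and passed in each (adjusted p = 0.0103, 0.0322 and 0.00113). RAS1, a small GTPase of the protein kinase A pathway, read -1.81, -0.73 and -1.87 and passed in the first and last (adjusted p = 0.000729, 0.0637 and 0.000521). TPK3, a protein kinase A catalytic subunit gene, was the second gene that fell in the strain labelled nup84gcr1 null, to -1.35. Among 9 glucose-responsive regulators 6, 4 and 5 rose, beside 17.2%, 8.61% and 20.5% of all genes, and none fell. They were led by ADR1, an activator of genes for ethanol use, at 2.56, 2.24 and 2.37 ± 0.22.

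Patterns like those of the members were ranked by Pearson r over the 12 arrays, as a description with no test, since every array carries wild-type RNA in its other channel. Closest to GCR1 came YOL036W (r = 0.969), SKA1, a partner of the Ski complex of RNA decay (r = 0.93), ULS1, a Swi2/Snf2 family translocase gene (r = 0.922), NTG2, a DNA glycosylase gene (r = 0.916), and BUD9, a bud site gene (r = 0.915). YOL036W read 1.64, 0.51 and 1.15 for the labels gcr1 null, nup84 null and nup84gcr1 null. BUD9 shared the order of the strains but lay below 0 in each, at -0.32, -1.30 and -0.89. TYE7 was closest to INM1, an inositol monophosphatase gene (r = 0.984), at 2.64, -0.14 and 1.86, and to CIT2, the peroxisomal citrate synthase gene (r = 0.961), at 2.67, -0.57 and 2.68. RAP1 was closest to DIS3, the catalytic exosome subunit gene (r = 0.942), at -0.67, -0.56 and -0.82, and to TAF14 (r = 0.921).

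The nearest genes to the members that were not called had r of 0.848 to 0.964. GCR2 was closest to RSC2 and MNL2 (r = 0.964 for both), IFH1 to RTT103 and BUD22 (r = 0.955 and 0.953), REB1 to NUP170 and SAS3 (r = 0.955 and 0.944), FHL1 to ALK1 and HPR1 (r = 0.91 and 0.894), and SFP1 to SAP1 and IES1 (r = 0.863 and 0.848). Of these 10 genes only IES1, a subunit gene of the INO80 complex, was called in any strain, at 1.19 and 1.05 in the strains labelled gcr1 null and nup84gcr1 null (adjusted p = 0.0163 and 0.0248).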

How the data were processed

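Values came from the deposited table of 12 two-colour Agilent arrays, RNA having been amplified and labelled with an Agilent low-input kit, per the labels. Each deposited value was taken to be a log2 ratio, Cy5 to Cy3. The table states neither log base nor direction: the base was inferred from the values, the direction from the dyes in the labels. The authors' scaling, centring and correction are not given in the sources used here. Of 10807 probes in that table, the annotation gave 1 gene symbol to 9271, several to 0 and none to 1536, and all 9271 gene identifiers matched assembly R64 (0 symbols updated). Columns of other series numbered 0.

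Signs of arrays 3 and 4 were turned, probes of a gene averaged, and each array centred on its median over 5636 genes (-0.16 to 0.099 before). Limma 3.58.1 in R 4.3.3 was fitted over all genes and 3 strains on means of 2 arrays, once with arrays 1 and 3 and 2 and 4 as dye swaps, once with 1 and 4 and 2 and 3. The larger p and SE were kept, and p-values were adjusted (Benjamini-Hochberg) over all genes. Nothing in the labels says whether samples came from separate cultures, so p-values measure only the spread between these samples. The number of arrays limits the precision. Members and lists were chosen with earlier results of these data known, and the genes named were the members, NUP84, the nearest patterns and each list's extreme called genes in the strain labelled gcr1 null. Other genes are named because they complete a small count. FPR1 was listed but not analysed here. Ribosomal protein genes were taken by symbol, without RPP1, an RNase P subunit gene. ABF1, TBF1 and CBF1 stand in 2 lists each. Python 3.11.15 with matplotlib 3.10.9 drew the figures.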

Additional observations from a re-analysis of the deposited data

Results flagged for a closer look

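TYE7 was singled out because 2 strains differed by the test: its log2 ratio in the strain labelled gcr1 null, against that in the nup84 null, differed by 2.39 (1.93 against -0.46; limma, adjusted p = 0.03), with all 4 arrays above 0 in the strain labelled gcr1 null and all 4 below 0 in the nup84 null. None of the 24 sets of 4 arrays (8 genes, 3 strains) held an array far from the other 3 by Dixon's test at its critical value for 4 values. For 4 independent values chance alone marks about 1 set in 20. These arrays are 2 samples with dye swaps, so that rate need not hold and the lack of a mark says little.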

How the results depend on the processing

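Under 22 alternatives the members gave 717 values, of which 627 kept direction and side of the threshold, 22 lost the call, 46 gained it and 22 changed sign. None of the sign changes was in a value that had been called. Many settings could not move a ratio against wild type, since they change only its spread. These were either pairing, arrays as replicates with or without a dye term, strains fitted alone, the replicate block and leaving out arrays of another strain. Direction was fixed in advance in those settings, so its being kept there is not evidence of stability. Tests of background correction, dim spots and slide were not run, since channel intensities and slides were not analysed here.

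Arrays 1 with 4 and 2 with 3 as the only swaps gave 5, 4 and 7 members against wild type for the gcr1 null, nup84 null and nup84gcr1 null labels, in place of 3, 0 and 3, and 4475, 4192 and 4629 genes in place of 1964, 941 and 2224. Between strains this pairing gave 4 members in each contrast, and 3149 genes (gcr1 null minus nup84 null), 3582 (nup84gcr1 null minus nup84 null) and 2340 (nup84gcr1 null minus gcr1 null), in place of 29, 42 and 0. The cause was not tested. Over all genes the gap between pair means had an SD of 0.17 to 0.21 by this pairing and 0.42 to 0.81 by the other.

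With the 4 arrays as replicates, 2 members and 2020 genes passed in the nup84 null, 1 member and 522 genes in nup84gcr1 null minus nup84 null, 401 genes in gcr1 null minus nup84 null and 66 in nup84gcr1 null minus gcr1 null. A dye term made these 3 members and 2599 genes, 1 and 1222, 2 and 902, and 226 genes, with 3265 and 3432 genes in the strains labelled gcr1 null and nup84gcr1 null. Scaling gave 2 members and 1923 genes in the nup84 null, 46 genes in gcr1 null minus nup84 null and 0 in nup84gcr1 null minus nup84 null. It turned the RAP1 differences to 0.12, 0.13 and 0.008 and IFH1 in the nup84 null to 0.004. Fitting strains alone gave 1 member and 2154 genes in the nup84 null and 1 and 1339 in the strain labelled nup84gcr1 null. Uncentred values gave 1 member in the nup84 null. By the first probe alone FHL1 read 0.005 and 0.086 in the strains labelled gcr1 null and nup84gcr1 null, and IFH1 0.006 in the nup84 null.

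The sample number as a replicate block gave 1 member in the nup84 null, RAP1, and 1 member and 71 genes in nup84gcr1 null minus nup84 null, and changed no other member's call. Same-numbered arrays of the strains labelled gcr1 null and nup84gcr1 null deviated together across genes, at r = 0.49 and 0.56. Against the nup84 null the r was -0.13 to 0.27. What the first 2 strains share was not tested. The labels tie no number to a shared batch, so the main fit does not pair the strains.

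Arrays were left out as 1 pair of 1 strain at a time, by either way of pairing. Only 1 way can match the dye swaps, so a pair need not be a biological sample. The upper ends of 2751 and 1893 genes came without arrays of the strain labelled nup84gcr1 null, which changed only the pooled spread. Leaving out 1 pair gave 1 to 4 members and 534 to 2751 genes in the strain labelled gcr1 null. In the nup84 null it gave 0 to 1 and 4 to 1893, and in the strain labelled nup84gcr1 null 3 to 5 members. Between strains it gave 0 to 1 member and 0 to 423 genes (gcr1 null minus nup84 null), 0 to 1 and 0 to 1142 (nup84gcr1 null minus nup84 null), and 0 to 138 genes (nup84gcr1 null minus gcr1 null). A strain with 1 pair left is assumed to vary like the other strains, so counts for that strain are not read as calls. Uncalled ratios that crossed 0 ranged from -0.047 to 0.23 (GCR2), -0.071 to 0.001 (FHL1) and -0.43 to 0.082 (IFH1) in the strain labelled gcr1 null, from -0.016 to 0.11 (GCR2), -0.37 to 0.30 (IFH1) and -0.19 to 0.078 (SFP1) in the nup84 null, and from -0.84 to 0.34 (GCR2), -0.93 to 0.18 (REB1), -0.36 to 0.29 (FHL1) and -0.96 to 0.40 (IFH1) in the strain labelled nup84gcr1 null. The RAP1 difference of gcr1 null minus nup84 null ranged from -0.17 to 0.007.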
